A study of Arabidopsis thaliana with 15 samples.

Results

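GI, COR27 (AT5G42900), AT4G33980 (also named COR28), AT1G07050 (a CCT motif protein gene) and AT3G44450 (also named BIC2) are 5 clock and light regulator genes of Arabidopsis thaliana. Each was represented by 1 probe set annotated to it alone, and together they were 5 of the 13286 genes with such a probe set. The genes were chosen by their measured values in these arrays. AT1G07050, COR27 and AT4G33980 had the lowest values of rps2 against Col-0 at 0 h among all 22746 probe sets, AT3G44450 had the seventh lowest value of Col-0 at 10 h against 6 h, and GI was taken as a clock gene whose time differences in these arrays were known. Their differences between groups are therefore given with errors and without a test.

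Transcripts were measured by array in mature leaves of 4-week-old plants grown on soil at 22 °C with 12 h of light and 12 h of dark. Psm (Pseudomonas syringae pv. maculicola) with the effector gene AvrRpt2 was infiltrated into the leaves at an optical density of 0.01 in a magnesium sulphate solution. The groups were the rps2 mutant at 10 h and at 0 h after infiltration and wild-type Col-0 at 0, 6 and 10 h, with 3 arrays each, described as biological replicates, and 15 arrays in all. RPS2 is the resistance protein that detects the action of AvrRpt2 in the plant cell. Every plant in every group received the same bacterium, so no mock-infiltrated group separates infiltration from the hour of the day, and the labels give no clock time of sampling, no rps2 allele and no hybridisation batch. The cultivar is labelled for the wild-type samples only. Infiltration and time of day cannot be told apart in any comparison of times, and RPS2 itself is not analysed here.

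The circadian clock of plants is a set of repressors and activators that peak in turn through the day and set when other genes are read. GI is an evening-phased protein that works with blue-light receptors of the ZTL and FKF1 family in the clock and in photoperiodic flowering. COR27 and AT4G33980 encode related small proteins that respond to cold and blue light, interact with the COP1 light signalling complex and repress evening clock genes. Proteins with a CCT motif, the domain shared by CONSTANS and the pseudo-response regulators of the clock, act in flowering time and clock control. AT3G44450 encodes an inhibitor of the blue-light receptors called cryptochromes, and BIC1 is its close relative. Transcripts of such genes swing widely within a day in healthy leaves.

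Each deposited value is a log2 difference of 1 array from the median of its probe set over the 15 arrays. The values therefore hold no absolute level, and levels of different genes cannot be compared. The third rps2 array labelled 10 h stood apart from the other two. Over all probe sets its SD of difference was 0.17 to 0.20 to the rps2 0 h arrays and 0.949 and 0.942 to rps2 10 h replicates 1 and 2, which differed from each other by 0.207. Differences of the 5 genes that rest on rps2 at 10 h are given on the deposited scale with this array (15 arrays) and without it (14 arrays). The fit over 14 arrays keeps 2 rps2 10 h arrays. Because the array left out was singled out by its values, every 14-array SE, p-value and count is conditional on that choice. Every 15-array SE pools the spread of all groups, so it holds this array's spread even where neither group compared includes it. The poly-A control RNAs, spiked into the samples before labelling, averaged 0.92, 1.13 and 0.90 on the Col-0 10 h arrays and between -0.49 and 0.12 on the other 12. The labelled tissue could not be checked against defining leaf markers, because centred values hold no level and none of the 4 mesophyll marker genes had a named probe set.

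GI was lower in rps2 than in Col-0 at 0 h, and in Col-0 it was lower at each later time. Its values were -3.09, -2.88 and 0.09 on the rps2 10 h arrays and -0.46, -0.22 and 0.00 on the rps2 0 h arrays. In Col-0 they were 2.01, 1.92 and 1.95 at 0 h, 0.09, 0.20 and 0.19 at 6 h, and -1.64, -1.41 and -1.79 at 10 h. The Col-0 arrays thus fell into 3 steps that did not overlap, and the mean was 1.96 ± 0.05 at 0 h, 0.16 ± 0.06 at 6 h and -1.61 ± 0.19 at 10 h (SD, n = 3). The third rps2 10 h array sat with the rps2 0 h arrays, while the other two were the lowest of all 15. At 0 h GI differed by -2.19 ± 0.60 (SE, 15 arrays) in rps2 from Col-0, a fold of 4.55. Within rps2 the difference of 10 h from 0 h was -1.73 ± 0.60 over 15 arrays and -2.76 ± 0.13 over 14 arrays. In a bulk leaf sample, fewer cells that express a gene and less RNA per cell cannot be told apart.

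COR27 separated the rps2 0 h arrays from every Col-0 array. It stood at 0.55, 0.31 and -5.65 on the rps2 10 h arrays and at -5.42, -5.70 and -5.73 on the rps2 0 h arrays. The Col-0 arrays lay at 0.46, 0.14 and 0.73 at 0 h, -0.19, 0.00 and -0.34 at 6 h, and -0.12, 0.14 and 0.04 at 10 h. All 9 Col-0 arrays and rps2 10 h replicates 1 and 2 were therefore within a narrow band, and the 4 remaining rps2 arrays were far below it. The difference of rps2 from Col-0 at 0 h was -6.06 ± 1.16 over 15 arrays, a fold of 66.6, the second lowest of all probe sets. Over 14 arrays COR27 was higher in rps2 at 10 h than at 0 h by 6.05 ± 0.16, and over 15 arrays by 4.02 ± 1.16. In Col-0 the 10 h arrays differed from the 0 h arrays by -0.42 ± 1.16 with overlapping ranges.

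AT4G33980, the relative of COR27, was likewise lowest on the rps2 0 h arrays and the third rps2 10 h array, and it was highest in Col-0 at 0 h. Its values were -0.11, -0.14 and -4.40 on the rps2 10 h arrays and -4.37, -4.39 and -4.10 on the rps2 0 h arrays. Col-0 gave 1.75, 1.48 and 1.99 at 0 h, then 0.00, 0.14 and 0.01 at 6 h, and -0.29, 0.03 and 0.18 at 10 h. The Col-0 0 h arrays were above all others, while the 6 h and 10 h arrays overlapped each other and, at 10 h, rps2 replicates 1 and 2. At 0 h the difference of rps2 from Col-0 was -6.03 ± 0.82 over 15 arrays, a fold of 65.3. In rps2 it was higher at 10 h than at 0 h by 4.16 ± 0.15 over 14 arrays and by 2.74 ± 0.82 over 15. The 6 h arrays of Col-0 differed from its 0 h arrays by -1.69 ± 0.82 for AT4G33980 and by -0.62 ± 1.16 for COR27 (SE over 15 arrays), and these 2 differences were not tested against each other. The ranges were apart for both genes, and both SEs are widened by rps2 10 h replicate 3.

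AT1G07050 was lower at 10 h than at 0 h in Col-0, and higher on 2 of the 3 rps2 arrays labelled 10 h than at 0 h in rps2. It stood at 1.46, 0.75 and -2.95 on the rps2 10 h arrays and at -3.37, -3.19 and -2.83 on the rps2 0 h arrays. In Col-0 it stood at 3.27, 3.07 and 3.56 at 0 h, 0.11, 0.58 and 0.00 at 6 h, and -3.17, -2.73 and -2.64 at 10 h. The Col-0 series went down in even steps of -3.07 from 0 h to 6 h and -3.07 from 6 h to 10 h, 70.7-fold in all, and its 10 h arrays overlapped the rps2 0 h arrays. At 0 h AT1G07050 was the lowest of all 22746 probe sets in rps2 against Col-0, with -6.43 ± 0.80 and a fold of 86.3. Within rps2, replicates 1 and 2 at 10 h were higher than the 0 h arrays by 4.24 ± 0.23, and with all 3 arrays the difference was 2.89 ± 0.80. At 10 h AT1G07050 was higher in rps2 than in Col-0 by 3.95 ± 0.23 over 14 arrays and by 2.60 ± 0.80 over 15.

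AT3G44450, the cryptochrome inhibitor gene, was low at 10 h in both genotypes, except on the third rps2 array. Its values were -2.68, -2.80 and 0.00 on the rps2 10 h arrays and -0.07, 0.16 and -0.21 on the rps2 0 h arrays. In Col-0 they were 0.68, 0.75 and 0.60 at 0 h, 0.81, 0.70 and 0.82 at 6 h, and -2.61, -2.61 and -2.59 at 10 h. The 0 h and 6 h arrays of Col-0 overlapped, and the whole step lay between 6 h and 10 h, with a difference of -3.38 ± 0.53 over 15 arrays. In rps2 the difference of 10 h from 0 h was -2.70 ± 0.10 over 14 arrays and -1.78 ± 0.53 over 15. At 0 h AT3G44450 differed by -0.72 ± 0.53 (SE, 15 arrays) in rps2 from Col-0, a fold of 1.64. The ranges of these groups were apart, and the SE is widened by rps2 10 h replicate 3, which is in neither.

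**Figure D1:**
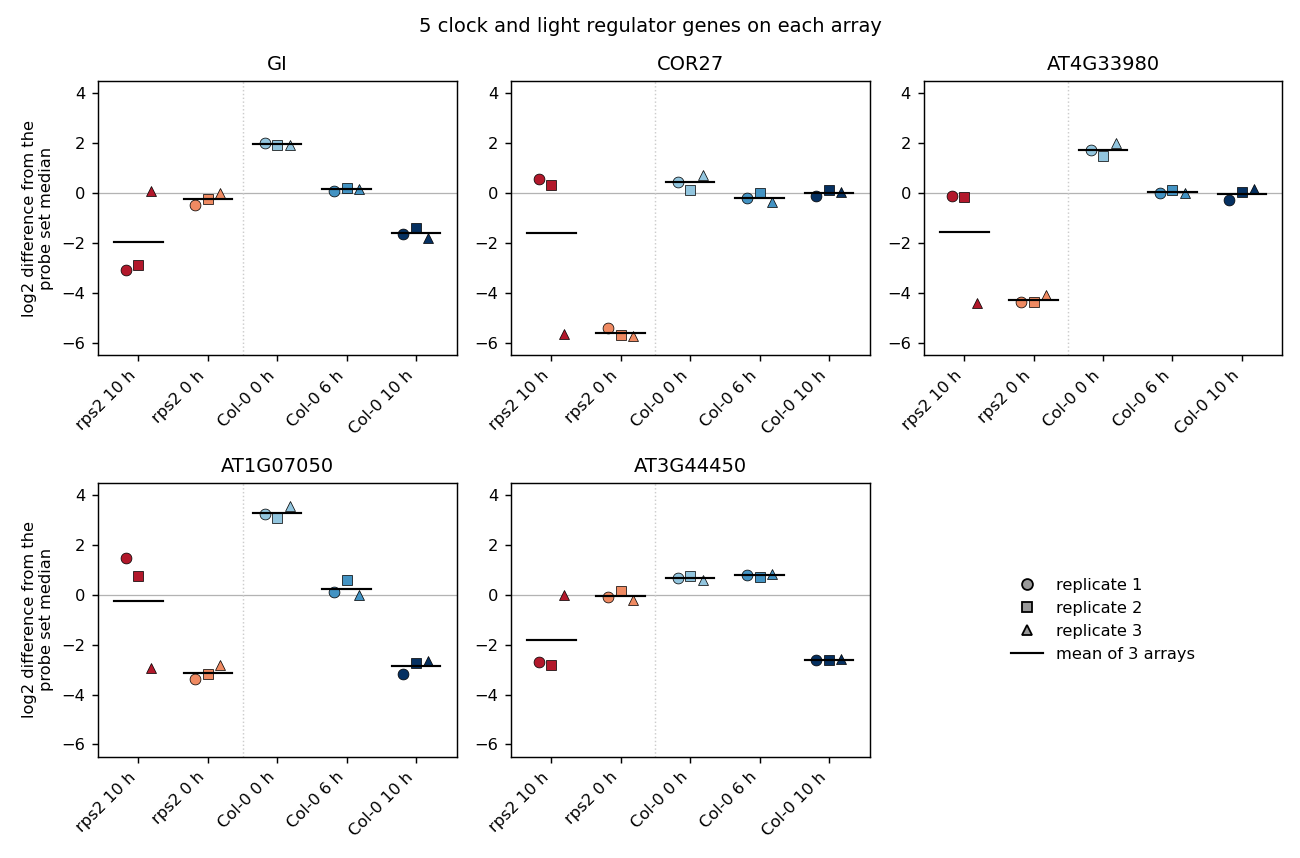
Values of the 5 genes on each of the 15 arrays, as log2 differences from the probe set's median (vertical axis), by group (horizontal axis: rps2 10 h, rps2 0 h, Col-0 0 h, 6 h and 10 h). Symbols mark the replicate number and bars the mean of 3 arrays. The triangle of rps2 10 h lies with the rps2 0 h arrays in every panel, at -5.65 for COR27 against 0.55 and 0.31 on the other rps2 10 h arrays.

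At 0 h all 5 genes were lower in rps2 than in Col-0, and no rps2 array overlapped a Col-0 array for any of them. The labels give no hour of sampling for either genotype, so genotype and hour of sampling cannot be told apart in these differences. This difference chose 3 of the 5, and 42.2% of all probe sets also had groups that did not overlap. The 3 chosen by it, AT1G07050, COR27 and AT4G33980, were 65.3-fold to 86.3-fold lower in rps2. GI and AT3G44450, which were chosen otherwise, ranked as the 124th lowest and the 1055th lowest. The guard cell marker FMA was lower in rps2 at 0 h, with a difference of -0.45 ± 0.10 (limma, adjusted p = 0.00699), and the phloem marker SWEET11 differed by 0.10 ± 0.11 (adjusted p = 0.679). At 10 h between rps2 and Col-0 the differences were 0.36 for FMA and 1.13 for SWEET11 (adjusted p = 0.00697 and 1.62e-06), and in the interaction of genotype and time they were 0.82 and 1.03. In Col-0 FMA differed by -0.59 at 6 h and -0.60 at 10 h from 0 h, and SWEET11 by -0.81 and -1.22. They were the 2 of 13 marker genes with a named probe set, and their part in the differences was not tested.

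At 10 h, without the third rps2 array, COR27 and AT4G33980 lay close to each other in the 2 genotypes. Over 14 arrays the difference of rps2 from Col-0 was 0.41 ± 0.16 for COR27 and -0.10 ± 0.15 for AT4G33980. GI differed by -1.37 ± 0.13, and AT3G44450 differed by -0.14 ± 0.10. The ranges of the groups were apart for 4 of the 5 genes without the third rps2 array, the exception being AT4G33980, and 69.5% of all probe sets were apart in that comparison. With that array 0 of the 5 genes were apart, against 58.3% of all probe sets. Over 15 arrays the differences at 10 h were -0.35 ± 0.60 for GI, -1.62 ± 1.16 for COR27, -1.53 ± 0.82 for AT4G33980 and 0.78 ± 0.53 for AT3G44450, so the single array turned the sign for COR27 and AT3G44450. The sign of GI there turned to 0.22 without rps2 10 h replicate 1 and to 0.11 without replicate 2.

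Within rps2, the groups at 10 h and 0 h overlapped for each of the 5 genes over 15 arrays, so 0 were apart, against 17.2% of all probe sets. Over 14 arrays all 5 were apart, against 65.8%. COR27, AT4G33980 and AT1G07050 were then higher at 10 h, and GI and AT3G44450 were lower. Within Col-0, 4 genes were lower at 6 h than at 0 h with no overlap, AT3G44450 being the exception, and 65.4% of all probe sets had groups apart. At 10 h against 0 h, 4 genes were lower with no overlap, COR27 being the exception, against 67.7% of all probe sets. From 6 h to 10 h the 3 genes GI, AT1G07050 and AT3G44450 were apart and lower at 10 h, against 50.6% of all probe sets. The last of these comparisons chose AT3G44450, and the shares of members stand near the shares of all probe sets in several of them.

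**Figure D2:**
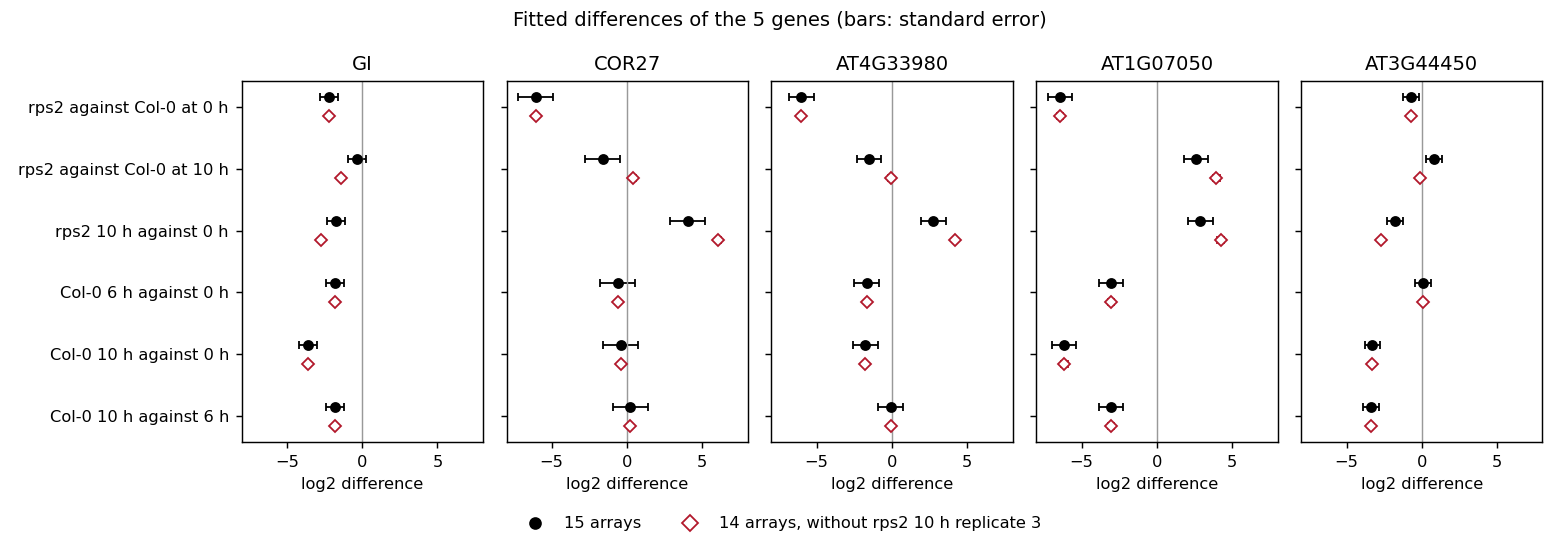
Fitted log2 differences of the 5 genes (horizontal axes) in 6 comparisons, with bars for the standard error. Filled circles use 15 arrays and open diamonds 14 arrays without rps2 10 h replicate 3. The 0 h differences between genotypes stay in place, at -6.06 for COR27, while the rps2 10 h difference of COR27 stands at 4.02 with the array and 6.05 without it.

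The difference of 10 h from 0 h in rps2 less that in Col-0, the interaction of genotype and time, was largest for AT1G07050 among the 5 genes. It was 10.38 ± 0.31 over 14 arrays and 9.03 ± 1.13 over 15, the second highest of all 22746 probe sets in the fit of 15. For COR27 it was 6.47 ± 0.21 and for AT4G33980 5.93 ± 0.20 over 14 arrays, and 4.44 ± 1.65 and 4.5 ± 1.17 over 15. GI gave 0.81 ± 0.17 and AT3G44450 0.58 ± 0.13 over 14 arrays, and 1.84 ± 0.84 and 1.5 ± 0.75 over 15. With quantile normalisation repeated on the centred values of the 15 arrays, GI gave 0.11 and AT3G44450 turned to -0.67. The 0 h arrays that chose 3 of the genes enter this value too, so it adds nothing independent of the choice.

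Ordered by their means over 14 arrays, the groups of GI ran Col-0 0 h, Col-0 6 h, rps2 0 h, Col-0 10 h and rps2 10 h, each apart from the next. COR27 ran Col-0 0 h and rps2 10 h, which overlapped, then Col-0 10 h and Col-0 6 h, which overlapped, and then rps2 0 h, apart from all. For AT4G33980 the order was Col-0 0 h, apart from the next, then Col-0 6 h, Col-0 10 h and rps2 10 h, neighbours of which overlapped, and rps2 0 h, apart from these. AT1G07050 had the order Col-0 0 h, rps2 10 h, Col-0 6 h, Col-0 10 h and rps2 0 h, with only the last pair overlapping. In AT3G44450 the order was Col-0 6 h and Col-0 0 h, which overlapped, then rps2 0 h, Col-0 10 h and rps2 10 h, each apart from the next. Over 15 arrays the rps2 10 h range overlapped its neighbours in the order for each gene.

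The replicates spread differently for the 5 genes. Over 14 arrays the residual SD within groups was 0.103 for AT3G44450, 0.154 for GI, 0.186 for AT4G33980, 0.198 for COR27 and 0.312 for AT1G07050, where the median probe set had 0.121. AT1G07050 lay at the 98.2 percentile of all probe sets and AT3G44450 at the 33.7 percentile. With all 15 arrays these SDs were 0.713, 0.808, 1.12, 1.58 and 1.09, and this wider spread sets the SE of every 15-array difference above.

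The deposited scaling gave all arrays a like distribution before the values were centred, so a difference here is set against the rest of the leaf's transcripts. Centring the arrays on the poly-A controls instead shifted the median probe set. The shift of Col-0 at 10 h was -1.08 relative to 0 h and -1.11 relative to 6 h, that of rps2 at 10 h was 0.29 relative to 0 h, and that of rps2 relative to Col-0 was -0.16 at 0 h and 1.2 at 10 h. The 0 h differences of rps2 from Col-0 kept their sign on that scale, at -6.60 for AT1G07050, -6.22 for COR27, -6.19 for AT4G33980, -2.35 for GI and -0.88 for AT3G44450. The difference of GI at 10 h between rps2 and Col-0 turned to 0.86, against -0.35 on the deposited scale. With quantile normalisation repeated on the centred values the GI difference was -2.47. On the poly-A scale COR27 in Col-0 at 10 h against 6 h turned to -0.92, against 0.20. The repeated quantile normalisation turned AT3G44450 at 10 h between rps2 and Col-0 to -1.44, against 0.78. It equalises the distributions of differences from probe set medians, not of intensities, so it does not repeat the RMA step.

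**Figure D3:**
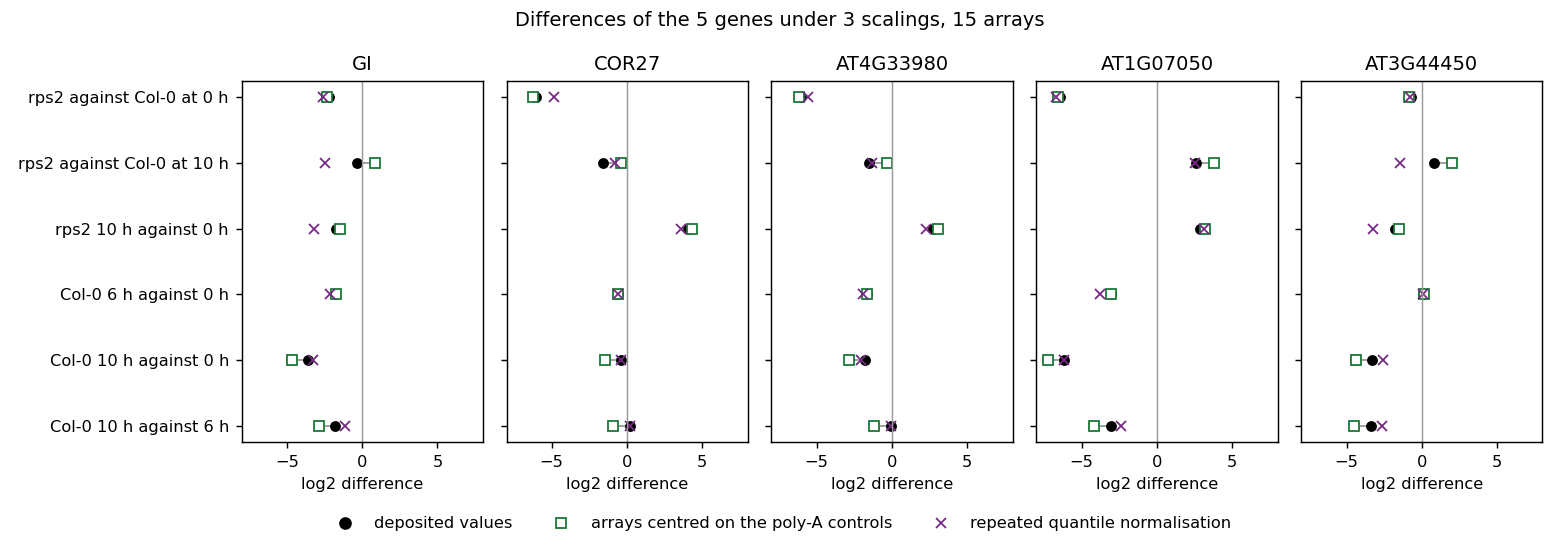
Log2 differences of the 5 genes (horizontal axes) in 6 comparisons over 15 arrays under 3 scalings. These are deposited values (circles), arrays centred on the poly-A controls (squares) and quantile normalisation repeated on the centred values (crosses). All scalings place rps2 below Col-0 at 0 h, with AT1G07050 at -6.43 on deposited values and -6.60 on the poly-A scale, and they part at 10 h, where GI stands at -0.35 and 0.86.

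Across the 15 arrays COR27 and AT4G33980 followed each other with a Pearson r of 0.964, and GI and AT3G44450 with 0.876. AT1G07050 had an r of 0.770 with AT4G33980, 0.658 with COR27, 0.445 with GI and 0.337 with AT3G44450. COR27 had an r of -0.07 with GI and -0.24 with AT3G44450. Arrays of a group share their genotype and treatment, so the 15 points are not independent, and the 4 rps2 arrays near -5.6 span most of the range of COR27. The 0 h arrays that chose COR27, AT4G33980 and AT1G07050 enter these values, so the likeness among these genes is not independent of the choice.

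Among 13281 other genes with a single-gene probe set, the 5 most like each gene by Pearson r over the 15 arrays were as follows. For GI they were AT1G18470 (0.971), AT1G06470, AT3G53990, ATMPK8 and AT1G01500 (0.963). COR27 was most like AT4G27130 (0.986), AT4G16146, AT2G25730, AT5G62200 and AT1G01640 (0.961). AT4G33980 was most like AT5G49900 (0.991), AT2G21130, AT2G25730, SCPL49 and AT2G38465 (0.956), so AT2G25730 stood on the lists of both relatives. AT1G07050 was most like AT5G39410 (0.980), AT5G14550, AT4G30650, AT4G34950 and the cold response gene COR15A (0.952). AT3G44450 was most like AT4G16880 (0.965), AT2G23840, AT1G73970, CYP71B26 and AT5G64180 (0.957). Over 14 arrays 4 or 5 of each 5 stayed on the list, whereas by Spearman's rho at most 1 of 5 did.

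The annotation covered the surrounding pathway thinly, and 8730 of the 22746 tested probe sets had no gene named. Of 93 genes on 7 lists of clock, photoperiod, photoreceptor, light signalling, BBX zinc finger and cold response genes, 8 had a named probe set. They included the clock genes TIC, from the evening list (1 of 12), and RVE6, from the morning and day list (1 of 14). Also covered were the photoperiod repressor gene CDF5 (1 of 12) and BIC1 among the photoreceptors and their inhibitors (1 of 11). The rest were the bZIP light signalling gene HYH (1 of 20) and the cold response genes COR15A, COR15B and COR47 (3 of 12). A single gene does not stand for its list. No BBX gene of 12 had a named probe set. Genes without one may still be measured by probe sets that the annotation leaves unnamed. These 8 were tested with limma, adjusted over all 22746 probe sets at a threshold of 0.05.

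At 0 h, 6 of the 8 genes passed the test in rps2 against Col-0, against 15.9% of all probe sets, and 7 passed over 14 arrays, against 30.1%. The 3 cold response genes were lower in rps2. COR15B, which encodes a protective chloroplast protein, averaged -0.33 ± 0.27 in rps2 and 2.86 ± 0.03 in Col-0 (SD, n = 3 each), a difference of -3.19 ± 0.28 (adjusted p = 1.02e-05). COR15A, of the same kind, differed by -2.99 ± 0.44 (adjusted p = 5.52e-04) and COR47, a dehydrin gene, by -1.45 ± 0.19 (adjusted p = 2.56e-04). RVE6 differed by -0.56 ± 0.13 (adjusted p = 0.00891). CDF5 and HYH were higher in rps2, by 2.17 ± 0.56 (adjusted p = 0.0181) and 1.48 ± 0.16 (adjusted p = 4.61e-05). BIC1 differed by -0.68 ± 0.22 (adjusted p = 0.0507), beside -0.72 for its relative AT3G44450, and TIC by 0.00 (adjusted p = 0.999). The call of CDF5 was lost on leaving out any Col-0 0 h array or rps2 0 h replicate 2 or 3, the difference staying between 2.14 and 2.21, and BIC1 passed on leaving out any one rps2 10 h array. The median difference of the 8 genes was -0.62, against 0.0031 over all probe sets.

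At 10 h, 4 genes passed in rps2 against Col-0, against 55.0% of all probe sets. COR15B and COR15A were higher in rps2, by 2.64 (adjusted p = 3.46e-06) and 1.88 (adjusted p = 0.0027), and HYH and RVE6 were lower in rps2, with differences of -1.98 (adjusted p = 2.36e-07) and -0.92 (adjusted p = 3.49e-05). Without the third rps2 array 5 passed, against 57.4% of all probe sets, CDF5 being added with -0.95. The differences of the others were then 3.07 for COR15B, 2.60 for COR15A, -2.0 for HYH and -1.05 for RVE6. The means of COR15A, COR15B and AT1G07050 were thus each lower in rps2 at 0 h and higher in rps2 at 10 h. For AT1G07050 the 0 h difference is the one that chose it. On the poly-A scale RVE6 turned to 0.28. The median of the 8 genes was 0.17 over 15 arrays and -0.10 over 14, against -0.05 and -0.06 over all probe sets.

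In Col-0 at 6 h against 0 h, 5 of the 8 genes passed, against 54.1% of all probe sets (7 and 59.7% over 14 arrays). HYH rose by 3.94 ± 0.16 (adjusted p = 1.16e-09), and COR15B, COR47, BIC1 and TIC fell by 2.78, 1.46, 0.90 and 0.85 on the log2 scale (adjusted p at most 0.00301). At 10 h against 0 h, 6 passed, against 59.7% (7 and 64.2% over 14 arrays): HYH rose by 3.18, and 5 genes fell, of which COR15B fell by 4.71 and COR15A fell by 3.36. At 10 h against 6 h, 5 passed, against 29.9% (7 and 43.2% over 14 arrays), and all 5 were lower at 10 h. BIC1 was among them with -0.67 (adjusted p = 0.0333), beside -3.38 for AT3G44450 in the same comparison. The call of BIC1 was lost on leaving out any Col-0 6 h array or Col-0 10 h replicate 1 or 2, the difference staying between -0.75 and -0.62. The median of the 8 genes was -0.81, -1.09 and -0.71 in these 3 comparisons, against -0.04, 0.0011 and 0.01 over all probe sets.

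Within rps2 at 10 h against 0 h, 0 of the 8 genes passed over 15 arrays, and 0.0% of all probe sets did. At an unadjusted p under 0.05 there were 8726 probe sets, and with array weights limma called 11632, with a trended and robust variance 3921. Over 14 arrays 7 of the 8 passed, against 48.1% of all probe sets. The 14-array p-values here rest on 2 rps2 10 h arrays and on leaving out an array singled out by its values. COR15A and COR15B rose by 2.24 ± 0.17 (adjusted p = 3.54e-08) and 1.56 ± 0.14 (adjusted p = 1.28e-07), while CDF5 fell by 2.71 ± 0.13 (adjusted p = 1.28e-10) and BIC1 by 1.05 (adjusted p = 5.18e-06). The other cold response gene, COR47, went the other way from COR15A and COR15B. Its mean was 0.02 in rps2 at 0 h and -0.52 on rps2 10 h replicates 1 and 2. HYH differed by -0.29 (adjusted p = 0.169). Over 15 arrays the differences were 1.52 for COR15A, 1.13 for COR15B, -1.76 for CDF5, -0.73 for BIC1 and -0.28 for HYH (adjusted p between 0.052 and 0.207). The median of the 8 was -0.38 over 15 arrays and -0.60 over 14, against -0.06 and -0.07 over all probe sets. For the interaction, 6 of the 8 passed over 15 arrays, against 44.5% of all probe sets, and 7 over 14 arrays, against 51.8%.

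**Figure D4:**
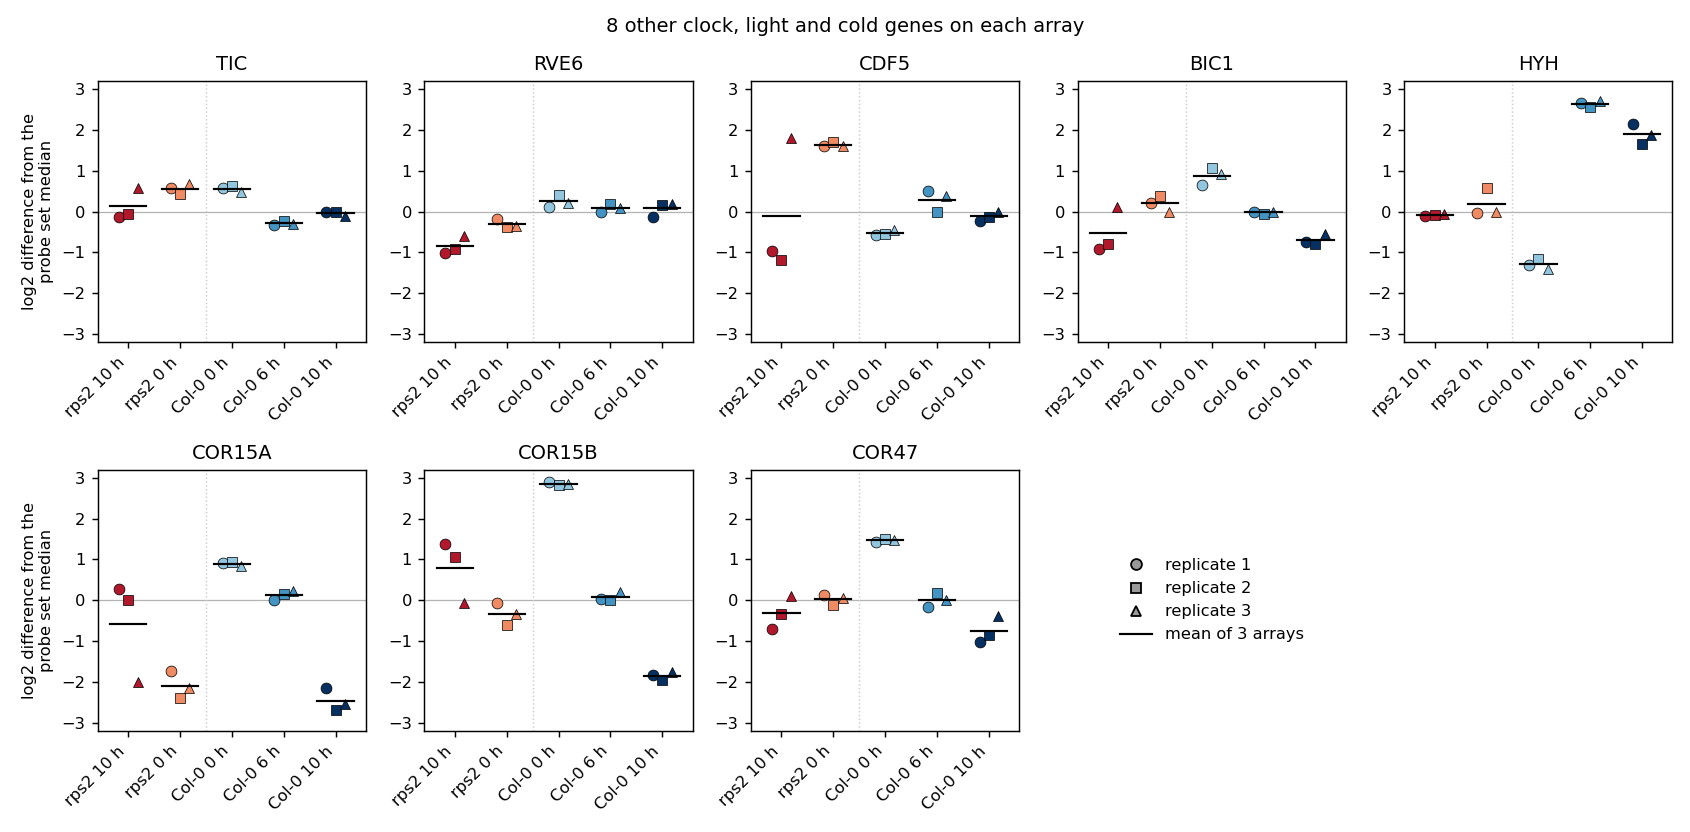
Values of the 8 other clock, light and cold genes on each of the 15 arrays, as log2 differences from the probe set's median (vertical axis), by group (horizontal axis). Symbols mark the replicate number and bars the mean of 3 arrays. COR15B averages -0.33 in rps2 and 2.86 in Col-0 at 0 h, and the triangle of rps2 10 h lies with the rps2 0 h arrays for CDF5, COR15A and TIC.

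A search of the gene table for further clock and photoperiod genes, made after the annotation had been read, found LIP1, PHL, XCT and DNF. LIP1, a small GTPase gene of the clock's light input, rose by 0.67 ± 0.12 in Col-0 between 0 h and 6 h (adjusted p = 2.64e-04) and was lower in rps2 than in Col-0 at 10 h, with a difference of -0.43 ± 0.12 (adjusted p = 0.00668) over 15 arrays and -0.32 ± 0.11 (adjusted p = 0.0201) over 14. DNF also passed there, with -0.27 ± 0.09 (adjusted p = 0.0243) over 15 arrays and -0.25 ± 0.10 (adjusted p = 0.0462) over 14, so 2 of the 4 were called at 10 h, against 55.0% of all probe sets. In rps2 against Col-0 at 0 h, XCT had the lowest adjusted p of the 4, with a difference of 0.29 (adjusted p = 0.0908 over 15 arrays and 0.0438 over 14). It was the 1 gene called over 14 arrays, against 30.1% of all probe sets, and was not called over 15, against 15.9%. At 10 h between the genotypes, the 2 probe sets of PHL differed by -0.38 and -0.02 over 15 arrays (-0.40 and -0.04 over 14) and did not give the same call.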

How the data were processed

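Per the submitters' processing notes the arrays were processed with RMA, which corrects the background, quantile-normalises and summarises each probe set. The deposited table holds log2 values, centred so that the median of each of the 22810 probe sets is exactly 0. Of these, 64 controls were set aside and 22746 were tested. The platform annotation gave 13513 probe sets a single gene, 503 several genes and 8730 none, and 13436 of the first were found in the gene table. Signal over background is not held in the values, so the number of arrays limits the precision.

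Arrays were grouped by their labels. R 4.3.3 and limma 3.58.1 were used to fit the 5 group means, with Benjamini-Hochberg adjustment over all tested probe sets, two-sided, with 10 residual and 2.31 prior degrees of freedom. P-values measure the spread between arrays labelled as biological replicates. The 5 genes and the lists were chosen with earlier results of these data known, and the 5 are in none of the lists. Named genes were these 5, up to 4 called genes of each list and comparison with the largest change, and the 5 highest Pearson r per gene; list genes that did not pass, LIP1, PHL, XCT and DNF were named after their values were seen. A gene with several probe sets is their mean in the likeness search. The steps were tested on simulated data. Alternatives covered the groups fitted, the replicate block, variance settings, array weights, scalings, a threshold of 0.01, shared transcripts and each array left out in turn. The share of all probe sets apart without rps2 10 h replicate 3 was an alternative chosen after seeing the data.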

Additional observations from a re-analysis of the deposited data

Results flagged for a closer look

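The 10 h change in rps2 differed from that in Col-0, by limma's interaction term, for 6 of the 8 listed genes over 15 arrays. Of all probe sets, 44.5% passed the same term. The change in rps2 less that in Col-0 was 5.84 for COR15B, 4.88 for COR15A, 1.89 for COR47 and 0.84 for BIC1 (adjusted p = 0.0406). It was -3.46 for HYH and -2.17 for CDF5 (adjusted p = 0.0397). Without rps2 10 h replicate 3 the values were 6.27 for COR15B, 5.60 for COR15A, 1.68 for COR47, 0.52 for BIC1, -3.48 for HYH and -3.12 for CDF5. With repeated quantile normalisation BIC1 turned to -0.65. The call of CDF5 was lost on leaving out any one of the 14 arrays other than rps2 10 h replicate 3, and its value ran from -3.12 without that replicate to -1.64 without replicate 2. The call of BIC1 was lost on leaving out any Col-0 6 h array, Col-0 0 h replicate 2 or 3, Col-0 10 h replicate 1 or 2, or rps2 0 h replicate 1 or 3, and its value ran from 0.52 to 1.03 over all 15 arrays left out in turn. The causes were not tested.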

How the results depend on the processing

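Counts of the 8 listed genes called and of the 5 genes with groups apart moved by over 1.5 times under few settings. In rps2 at 10 h against 0 h the listed count was 0, but 5 with trended and robust variance, 7 with array weights, 6 with repeated quantile normalisation, 2 on the poly-A scale, and 0 to 7 over arrays left out, where only the fit without rps2 10 h replicate 3 gave a count above 0. Of all 22746 probe sets, the first 4 of these settings called 3921, 11632, 6715 and 4348 in turn. The fit without rps2 10 h replicate 3 called 10937, and the main fit called 0. For Col-0 10 h against 6 h it was 5, but 8 on the poly-A scale and 2 with quantile normalisation. Of all 22746 probe sets, 430 were called up and 20542 down there on the poly-A scale. With quantile normalisation 949 were called up and 1115 down. Between the genotypes at 10 h it was 4, but 7 on the poly-A scale, and for the interaction 6, but 3 with quantile normalisation. Of all probe sets, 19208 were called up and 1313 down between the genotypes at 10 h on the poly-A scale. The interaction with quantile normalisation had 3553 up and 3217 down. Of the 5 genes, groups apart numbered 3 in Col-0 at 10 h against 6 h (5 on the poly-A scale), 0 in rps2 at 10 h against 0 h (1 on the poly-A scale, 0 to 5 over arrays left out) and 0 between the genotypes at 10 h (2 on the poly-A scale, 0 to 4 over arrays left out). Of all probe sets, 95.0%, 31.2% and 87.2% were apart in these 3 comparisons on the poly-A scale, against 50.6%, 17.2% and 58.3% as deposited. Leaving out rps2 10 h replicate 3 gave 5 genes in rps2 and 4 between the genotypes, against 65.8% and 69.5% of all probe sets. Leaving out rps2 0 h replicate 1 or 3 gave 1 in rps2, against 25.6% and 31.0%. Leaving out Col-0 10 h replicate 1 gave 1 between the genotypes, against 63.9%. For the interaction, arrays left out gave 4 to 7 listed genes. On the poly-A scale TIC in Col-0 at 10 h against 6 h reversed to -0.87 (0.25 as deposited), RVE6 at 10 h between rps2 and Col-0 to 0.28 (-0.92) and RVE6 in the interaction to 1.0 (-0.37). CDF5 at 10 h between rps2 and Col-0 was 0.0015, and -0.89 with array weights, and ran from -0.95 without rps2 10 h replicate 3 to 0.53 without replicate 2. BIC1 in the interaction was 0.84, and -0.65 with quantile normalisation. The cause was not tested. Same-numbered arrays deviated together with r from -0.29 to 0.26, 2 of 30 pairs over 0.1. For other-numbered arrays r ran from -0.35 to 0.34, 8 of 60 pairs over 0.1. No pairing by number was seen, though weak correlations cannot exclude it. With the replicate block the listed counts were 5, 6, 5, 0, 6, 5 and 6 in the 7 comparisons, against 5, 6, 5, 0, 6, 4 and 6. Differences of the 5 genes moved by more than the spread in 26 of 35 cases on the poly-A scale and in 24 with quantile normalisation.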
